A study of Homo sapiens with 4 samples.

Results

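The tubulin mRNAs encode the subunits of microtubules. They were followed here in RNA immunoprecipitates made with an antibody against KIAA1429 and in precipitates made with normal IgG. The rule for the set used gene names, although the set was proposed with earlier results of these data known. It covered 10 genes, namely TUBA1A, TUBA1B, TUBA1C, TUBA4A, TUBB, TUBB2A, TUBB3, TUBB4B, TUBB6 and TUBG1. Of these, 9 had values among the 13300 gene names listed, with 31 of the 34975 listed transcripts, and TUBA4A was not analysed here. To be tested, a gene total or transcript had to average 1 FPKM or more across the 4 libraries, and all 9 genes and 24 of the 31 transcripts did. None of the 9 gene totals was at 0 in any library, whereas 7.94% of all gene totals tested were at 0 in at least 1.

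A microtubule is a hollow polymer of heterodimers, each made of an alpha-tubulin and a beta-tubulin. Gamma-tubulin sits in a ring complex at the centrosome and starts new microtubules. Human cells carry several genes, or isotypes, for alpha- and for beta-tubulin. Their products are nearly alike in the folded core and differ mainly in the acidic tail at the carboxyl end. Newly made alpha- and beta-tubulin chains are folded by prefoldin, the chaperonin CCT and the tubulin cofactors. When free dimers accumulate, the factor TTC5 recognises the first residues of a nascent tubulin chain on the ribosome and the tubulin mRNA being translated is degraded, a loop called tubulin autoregulation.

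The cells were HCCLM3, a human hepatocellular carcinoma line, which is 1 established line with no further allele or treatment named in the labels. KIAA1429, also called VIRMA, is a subunit of the methyltransferase complex that writes N6-methyladenosine (m6A) on RNA. RNA immunoprecipitation (RIP) recovers the RNAs that come down with the antibody, and IgG gives the background of the beads. There were 2 replicates with the KIAA1429 antibody (KIAA1429 RIP) and 2 with normal IgG (IgG RIP), and the comparison asks which RNAs were more abundant in the former. A library of input RNA was not analysed here, so a level below is a level within a precipitate. Nothing in the sources used says that the replicates came from separate cultures, so p-values measure only the spread between these libraries, which may be technical. In bulk samples fewer cells that express a gene and less RNA per cell cannot be told apart.

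Values are FPKM, that is fragments scaled by transcript length and by library size, so levels may be set beside each other across genes. A gene total is the sum of the listed transcripts of a gene. The depth of the libraries is unknown. The FPKM sums over all listed transcripts lay between 295573 and 340300, and 26.6% to 32.2% of the listed transcripts were at 0 in a library. Across gene totals, Spearman's correlation was 0.849 within IgG RIP, compared with 0.872 within KIAA1429 RIP, and it was 0.833 to 0.885 between libraries of different groups. Libraries of a group were thus no more alike than libraries of different groups. As a check of the labelled cells, 10 of 11 hepatocyte and hepatoma markers were listed, with summed levels of 1436 to 1744 FPKM, among them AFP at 99.1 to 128 FPKM and ALB at 53.5 to 76.3 FPKM. Of the leukocyte markers 2 of 5 were listed, LYZ at 9.89 to 17.5 FPKM and CD14 at 0 to 2.12 FPKM, of the neuronal markers 2 of 4 (summed levels of 0.223 to 2.7 FPKM), and of the fibroblast and endothelial markers 0 of 6. KRT18 was the most abundant of the markers in every library, at 820 to 1048 FPKM.

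The ends of the coding sequences show which tubulin mRNAs can be told apart by their reads. They are the last 30 coding bases of the most abundant transcript of each gene, read 5′ to 3′ from the GENCODE 44 annotation on GRCh37, with the stop codon in capitals. They are shown for TUBA1C and the beta-tubulin members, together with TUBB2B, a beta-tubulin gene outside the set that lies next to TUBB2A.
TUBA1C: gacggagaggatgagggtgaagagtatTAA
TUBB: ttcggtgaggaggccgaagaggaggccTAA
TUBB2A: gaggaggaggagggcgaggacgaggctTAA
TUBB2B: gaggaggaggagggcgaggacgaggcgTAG
TUBB3: gaggagtcggaggcccagggccccaagTGA
TUBB4B: gaggaggaggctgaggaggaggtggccTAG
TUBB6: gaggatgaggaagaggagatcgatggaTAG
Each lies in 1 exon. On chromosome 12 the end is at chr12:49666981-49667010 (TUBA1C, plus strand). On chromosome 6 they are at chr6:30692145-30692174 (TUBB, plus strand), chr6:3154097-3154126 (TUBB2A, minus strand) and chr6:3224985-3225014 (TUBB2B, minus strand). The other 3 are on plus strands, at chr16:90002183-90002212 (TUBB3), chr9:140137979-140138008 (TUBB4B) and chr18:12326100-12326129 (TUBB6). Among the ends shown, those of TUBA1C, TUBB, TUBB3, TUBB4B and TUBB6 each differ from the rest, whereas TUBB2A and TUBB2B end almost alike. The end of TUBB3 also lies within the span of ENSG00000198211, an annotated gene model on the same strand.

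The beginnings of the coding sequences are shown because they encode the residues that autoregulation reads. They are the first 24 coding bases, with the first 4 codons in capitals.
TUBA1A, TUBA1B and TUBA1C: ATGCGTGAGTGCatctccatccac
TUBB: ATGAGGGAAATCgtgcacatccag
TUBB2A: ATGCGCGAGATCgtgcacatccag
TUBB3 and TUBB6: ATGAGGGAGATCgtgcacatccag
TUBB4B: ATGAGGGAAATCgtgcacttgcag
TUBG1: ATGCCGAGGGAAatcatcacccta
The 3 alpha-tubulin genes began with the same 24 bases, which are split by an intron in the genome. The beta-tubulin genes used several codon choices over their first 4 codons, and TUBG1 had a beginning unlike both.

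How far the genes can be separated was measured over whole coding sequences and over windows of 50 bases of each most abundant transcript. The alpha-tubulin coding sequences were 95.9% to 97.2% identical, with runs of up to 326 identical bases between TUBA1B and TUBA1C. TUBB2A and TUBB2B were 98.1% identical with a run of 725 bases. TUBB was 80.9% to 84.7% identical to the other beta-tubulin genes, with no shared run beyond 35 bases, and alpha- and beta-tubulin coding sequences were 51.9% to 54% identical. Of the windows of TUBB2A 59.5% also occurred in another listed gene, all such windows being found in TUBB2B. The share was 56.6% for TUBA1B, 47.1% for TUBA1A and 26.7% for TUBA1C. TUBB6 shared 1.09% of its windows, TUBB4B 6.8%, TUBG1 29.1% (with its paralogue TUBG2) and TUBB 0%.

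**Figure D1:**
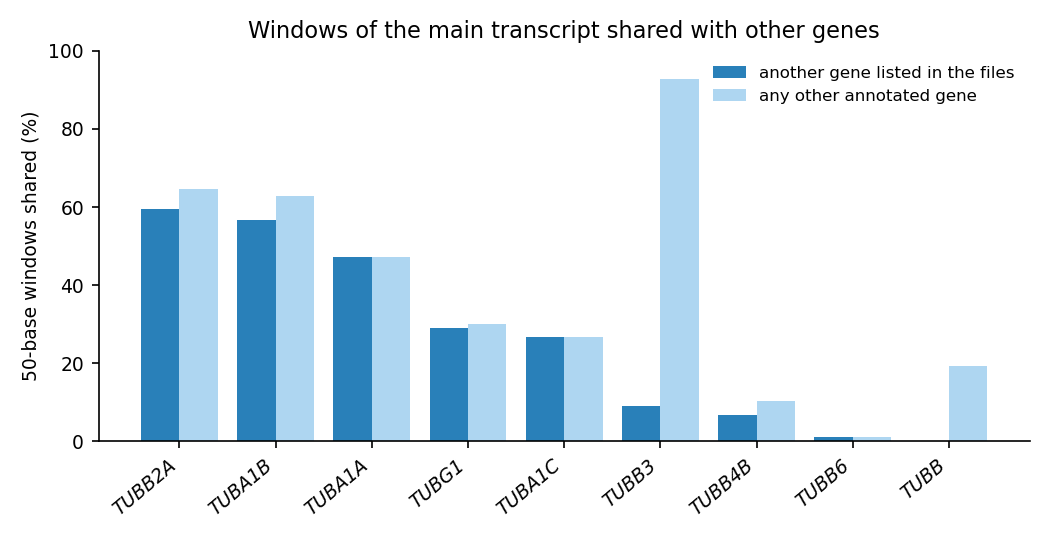
Share of 50-base windows of the most abundant transcript of each tubulin gene (y axis, percent) that also occur in another gene listed in the files (dark bars) or in any other annotated gene (light bars). TUBB2A, TUBA1B and TUBA1A share 59.5%, 56.6% and 47.1% of their windows with listed genes, TUBB6 shares 1.09%, and the light bar of TUBB3 reaches 92.8%.

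Sharing with annotated genes that are not listed concerned mainly TUBB3 and TUBB. Of the windows of TUBB3 92.8% also belonged to ENSG00000198211, a protein-coding gene model without a symbol that runs through TUBB3 on the same strand. Of the windows of TUBB 19.3% occurred in another annotated gene, mostly in the pseudogene TUBBP1 (17.1%). The annotation holds 50 alpha- and beta-tubulin pseudogenes, of which 0 are listed by name. Because it is not stated how reads with several matches were assigned, the totals of TUBA1A, TUBA1B, TUBA1C, TUBB2A and TUBG1 are uncertain where these genes are read apart. With windows of 100 bases, a length chosen after seeing the data, the shares with listed genes were 53.7% for TUBB2A, 32.1% for TUBA1B, 21.2% for TUBA1A, 15% for TUBG1 and 12.3% for TUBA1C.

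No tubulin gene passed the call between the precipitates, which required an adjusted p under 0.05 and a log2 fold change beyond 1. The limma estimate was positive for 5 members and negative for 4, beside 51.4% positive over all gene totals, and it ranged from -0.74 for TUBA1A to 0.71 for TUBB6 on the scale of log2(FPKM + 1). The median over the 9 members was 0.07, beside 0.02 over all 11361 gene totals tested. The adjusted p was 0.997 for every member. Over all gene totals 0% were called in either direction, with a lowest adjusted p of 0.515, and 4.59% (522) had an unadjusted p under 0.05, as did 1 of the 9 members, TUBB6. By direction these were 3.17% higher and 1.43% lower over all gene totals, against 1 and 0 of the members. For any single gene the smallest two-sided p from exact permutation of these 4 libraries is 0.333.

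**Figure D2:**
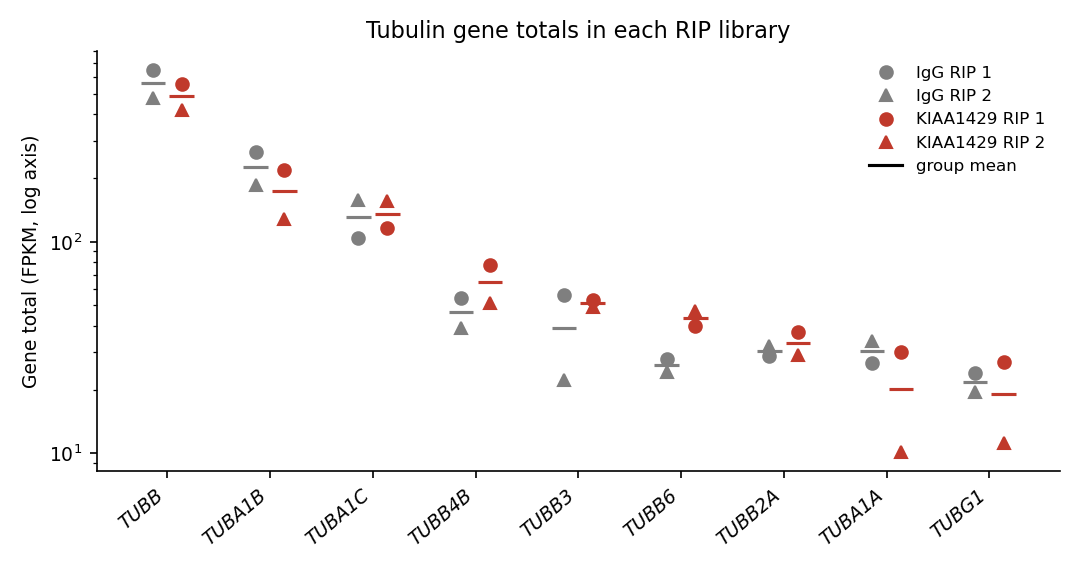
Gene totals of the 9 tubulin genes in each library (FPKM, log axis), ordered by their mean. Grey symbols are IgG RIP, red symbols KIAA1429 RIP, circles replicate 1 and triangles replicate 2, and horizontal lines are group means (n = 2). TUBB lies at 420 to 650 FPKM, above all other members, and the red symbols lie wholly above the grey ones in TUBB6 only.

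The tubulin genes differed far more from each other than between precipitates. Ordered by the mean over the 4 libraries, TUBB came first with 526 FPKM, followed by TUBA1B with 199 FPKM and TUBA1C with 134 FPKM. TUBB4B (55.6 FPKM), TUBB3 (45.1 FPKM), TUBB6 (34.7 FPKM), TUBB2A (31.9 FPKM), TUBA1A (25.2 FPKM) and TUBG1 (20.4 FPKM) came next. TUBB was above TUBA1B, and TUBA1C above TUBB4B, without overlap of their values. All other neighbours in this order overlapped, so that TUBB6 and TUBB2A, for example, were each the higher in 2 libraries. TUBB ranked 32nd and 69th of all gene totals in IgG RIP, against 80th and 103rd in KIAA1429 RIP.

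Alpha-tubulin is the subunit that stays bound to GTP within the dimer, and it came from TUBA1B, TUBA1C and TUBA1A. The 3 genes lie near each other on chromosome 12. The most abundant transcripts are listed at chr12:49521565-49525178 for TUBA1B, at chr12:49578579-49583107 for TUBA1A, both on the minus strand, and at chr12:49658690-49668386 on the plus strand for TUBA1C. Each is annotated with 4 exons, including 5′ and 3′ UTRs. The annotated gene TUBA1C, from position 49582519, overlaps the 5′ end of TUBA1A on the opposite strand.

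TUBA1B is the isotype made in most dividing cells. It measured 265 and 185 FPKM in IgG RIP, compared with 219 and 128 FPKM in KIAA1429 RIP. The lowest value was in KIAA1429 RIP, but the higher value of that group lay between the values of IgG RIP. Means were 225 ± 56.3 and 174 ± 64.8 FPKM (SD, n = 2), and the limma log2 fold change was -0.40 (SE 0.38, 95% interval -1.29 to 0.49, unadjusted p = 0.321 across all gene totals).

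TUBA1C, a broadly expressed isotype, measured 104 and 158 FPKM in IgG RIP, against 116 and 156 FPKM in KIAA1429 RIP. Replicate 2 was the higher in both groups, and both KIAA1429 RIP values lay between those of IgG RIP. The means were 131 ± 38.6 and 136 ± 27.9 FPKM (SD, n = 2). Its log2 fold change was 0.07 (SE 0.34, 95% interval -0.73 to 0.87), and the sign turned with the processing, to -0.10 after quantile normalization and to -0.34 when only the most abundant transcript was used.

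TUBA1A, the isotype known for its role in the developing brain, measured 26.6 and 33.9 FPKM in IgG RIP, compared with 30.2 and 10.1 FPKM in KIAA1429 RIP. A single library, KIAA1429 RIP 2, lay below the other 3. The log2 fold change was -0.74 (SE 0.51, 95% interval -1.94 to 0.47, unadjusted p = 0.19 across all gene totals). It was -1.49 without KIAA1429 RIP 1 and 0.01 without KIAA1429 RIP 2.

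Summed over the 3 genes, alpha-tubulin measured 395 and 378 FPKM in IgG RIP, against 366 and 294 FPKM in KIAA1429 RIP. FPKM are scaled by length, and the main transcripts have 1627 bases in TUBA1B, 1672 in TUBA1A and 2823 in TUBA1C, so the sum still depends in part on how shared reads were split. Both KIAA1429 RIP values were below both IgG RIP values. The log2 ratio of the means was -0.23 with an error of 0.23, so the difference was no larger than the spread between replicates. Non-overlap with KIAA1429 RIP lower was seen in 15.2% of all gene totals. Within the sum, TUBA1B gave 67%, 49.1%, 59.9% and 43.5% in IgG RIP 1, IgG RIP 2, KIAA1429 RIP 1 and KIAA1429 RIP 2. TUBA1C gave 26.2%, 41.9%, 31.8% and 53.1% in the same order. The balance between these isotypes thus differed as much between replicates of a group as between groups, with TUBA1C above TUBA1B in KIAA1429 RIP 2 only.

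Beta-tubulin is the subunit that hydrolyses GTP as the polymer grows. TUBB, the main beta isotype of proliferating cells, is listed at chr6:30687978-30693203 on the plus strand. It measured 650 and 477 FPKM in IgG RIP, compared with 556 and 420 FPKM in KIAA1429 RIP. The groups overlapped, and KIAA1429 RIP was the lower within each same-numbered pair of libraries. Means were 563 ± 122 and 488 ± 96.3 FPKM (SD, n = 2), with a log2 fold change of -0.20 (SE 0.36, 95% interval -1.06 to 0.66). This was 0.02 without IgG RIP 1 and -0.66 after quantile normalization.

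TUBB6, a beta isotype found at low levels in many tissues, is listed at chr18:12308058-12326618 on the plus strand. It measured 27.9 and 24.1 FPKM in IgG RIP, against 40 and 46.8 FPKM in KIAA1429 RIP. Both KIAA1429 RIP libraries lay above both IgG RIP libraries, which held for no other member. Over all gene totals, 16.6% showed this pattern, beside 1 of the 9 members. The means were 26 ± 2.69 and 43.4 ± 4.82 FPKM (SD, n = 2), a 1.67-fold ratio, and the log2 fold change was 0.71 (SE 0.29, 95% interval 0.02 to 1.41, unadjusted p = 0.046 and adjusted p = 0.997 by limma). When each library was left out in turn it was 0.60 to 0.83, with unadjusted p of 0.0531 to 0.195 by limma. As its coding end is its own and 1.09% of its windows are shared with other genes, the total of TUBB6 depends least, after TUBB, on reads shared with other listed genes.

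TUBB4B, an isotype of both cytoplasmic and ciliary microtubules, is listed at chr9:140135665-140138159 on the plus strand with a single transcript. It measured 54.3 and 39 FPKM in IgG RIP, compared with 77.9 and 51.1 FPKM in KIAA1429 RIP. KIAA1429 RIP was the higher within both pairs, yet its lower value was under the higher value of IgG RIP. The log2 fold change was 0.45 (SE 0.34, 95% interval -0.36 to 1.25). Being above in both pairs was shared with TUBB6, and so with 2 of 9 members, beside 27.4% of all gene totals. Being below in both pairs held for TUBA1B and TUBB, 2 of 9 members, beside 25.3% of all gene totals.

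TUBB3, the isotype used as a marker of neurons and often present in carcinoma cells, is listed at chr16:89989687-90002505 on the plus strand. It measured 56.1 and 22.1 FPKM in IgG RIP, against 53.2 and 49.3 FPKM in KIAA1429 RIP. IgG RIP 2 stood at less than any other library, and the other 3 lay close together. The log2 fold change was 0.52 (SE 0.45, 95% interval -0.54 to 1.59). It was 1.18 without IgG RIP 1 and -0.13 without IgG RIP 2, so the direction rested on IgG RIP 2. Most of its sequence also belongs to an overlapping gene model.

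TUBB2A, a beta isotype abundant in neurons, is listed at chr6:3153903-3157760 on the minus strand. It measured 28.8 and 32.2 FPKM in IgG RIP, compared with 37.4 and 29.1 FPKM in KIAA1429 RIP. The groups overlapped, and the log2 fold change was 0.11 (SE 0.30, 95% interval -0.61 to 0.83), or -0.06 without KIAA1429 RIP 1. Its near-copy TUBB2B measured 75.2, 69.6, 80.4 and 65.8 FPKM in IgG RIP 1, IgG RIP 2, KIAA1429 RIP 1 and KIAA1429 RIP 2. The sum of the pair was 104 and 102 FPKM in IgG RIP, against 118 and 95 FPKM in KIAA1429 RIP, with a log2 ratio of means of 0.05 and an error of 0.22. With main transcripts of 1616 bases in TUBB2A and 1922 in TUBB2B, this sum too depends in part on the division of shared reads. TUBB2A and TUBB2B together were therefore among the steadiest tubulin levels in these libraries.

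**Figure D3:**
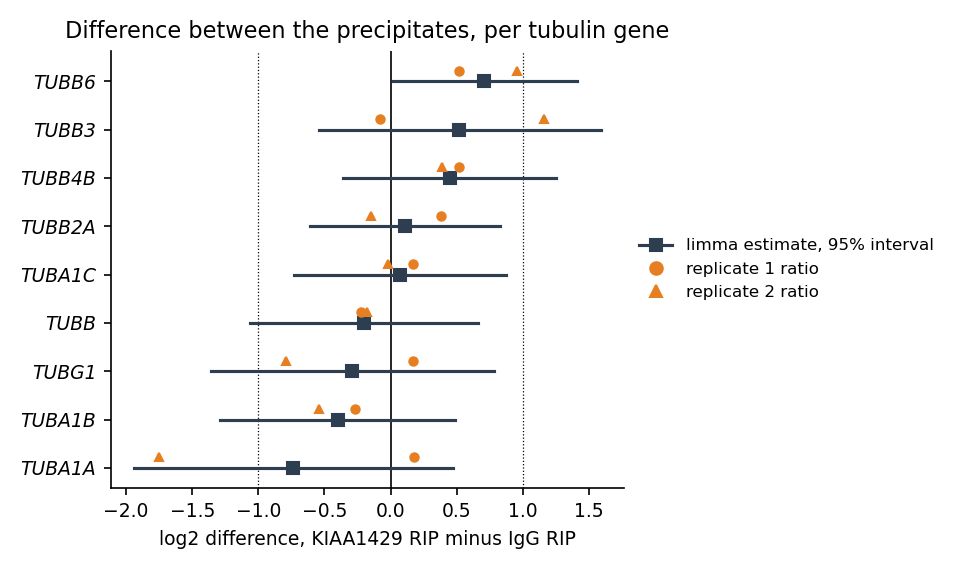
Log2 difference of each tubulin gene total between KIAA1429 RIP and IgG RIP. Squares with lines are limma estimates with 95% intervals, circles and triangles are the ratios within replicate 1 and replicate 2, and dotted lines mark a log2 difference of 1 in either direction. The interval of TUBB6 (0.02 to 1.41) is the only one that lies above 0, before adjustment for the number of genes tested.

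Summed over TUBB, TUBB2A, TUBB3, TUBB4B and TUBB6, beta-tubulin measured 817 and 595 FPKM in IgG RIP, compared with 765 and 596 FPKM in KIAA1429 RIP, with a log2 ratio of means of -0.05 and an error of 0.41. TUBB gave 79.5% and 80.2% of the sum in IgG RIP, against 72.7% and 70.4% in KIAA1429 RIP. The share of TUBB6 was 3.42% and 4.06% in IgG RIP, compared with 5.23% and 7.85% in KIAA1429 RIP, and that of TUBB4B was 6.65% and 6.56% against 10.2% and 8.56%. TUBB3 gave 6.86% and 3.71% against 6.95% and 8.26%, and TUBB2A 3.53% and 5.42% against 4.89% and 4.88%. These shares sum to a fixed whole, are not independent of the gene totals above, and were not tested. The beta-tubulin members together exceeded the alpha-tubulin members in each library, by ratios of 2.07 and 1.57 in IgG RIP, against 2.09 and 2.03 in KIAA1429 RIP. TUBB2B, with a mean of 72.8 FPKM, is outside the set and is not in these sums and shares.

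The family sum over all 9 members was 1236 and 992 FPKM in IgG RIP, compared with 1158 and 901 FPKM in KIAA1429 RIP. Replicate 1 was the higher in both groups. The log2 ratio of the means was -0.11 with an error of 0.34, well within the replicate spread. TUBB alone made up 46.6% to 52.6% of this sum, and the ratio was -0.02 without TUBB and -0.05 without TUBA1B, both alternatives chosen after seeing the data. Of all FPKM in a library the tubulin mRNAs took 0.418% and 0.314% in IgG RIP, against 0.344% and 0.265% in KIAA1429 RIP. Among 5167 gene totals with a mean of at least 10 FPKM, those whose centred log2 levels over the 4 libraries lay closest to the family sum were NUP214 (distance 0.048), UBE2E3 (0.051) and UBE2D2 (0.053), as a description of 4 libraries.

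Gamma-tubulin was measured as TUBG1, listed at chr17:40761694-40767252 on the plus strand with 1 transcript, annotated with 11 exons. It measured 23.9 and 19.4 FPKM in IgG RIP, compared with 26.9 and 11.2 FPKM in KIAA1429 RIP. The KIAA1429 RIP libraries held both the highest and the lowest value. Its start overlaps RETREG3, a listed gene on the opposite strand that reaches to position 40762641. The log2 fold change was -0.29 (SE 0.45, 95% interval -1.36 to 0.78), and 0.31 without KIAA1429 RIP 2. TUBG2, the other gamma-tubulin gene, measured 3.84 and 1.31 FPKM in IgG RIP, against 8.71 and 4.69 FPKM in KIAA1429 RIP, without overlap (log2 fold change 1.15, SE 0.58, unadjusted p = 0.0871 and adjusted p = 0.997 by limma). Together the pair measured 27.8 and 20.7 FPKM in IgG RIP, compared with 35.6 and 15.9 FPKM in KIAA1429 RIP, with overlapping groups.

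At the level of transcripts the libraries were less alike. Spearman's correlation across 23375 transcripts was 0.487 and 0.541 within groups. Of the 31 tubulin transcripts 15 were listed at 0 in at least 1 library, 8 of them in 3 libraries, and 16 were above 0 in all. Among the 24 tested, 8 were listed at 0 in at least 1 library, beside 39.7% of all transcripts tested. A listed 0 can be a failed estimate where transcripts share most of their sequence. For this reason no fold is given against a group at 0.

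Of the 24 tubulin transcripts tested, 0 were called, beside 0% of all transcripts in either direction, and the adjusted p ranged from 0.78 to 1 by limma. The estimate was positive for 9 and negative for 15, beside 50.4% positive over all transcripts. An unadjusted p under 0.05 was reached by 4 of 24, beside 5.36% of all transcripts. Of the 4, 1 was higher and 3 were lower in KIAA1429 RIP, where 3.03% and 2.33% of all transcripts were. Of the 3 lower, ENST00000295766 reached the required mean through IgG RIP alone, and ENST00000330914 and ENST00000396384 both belong to TUBB. The groups did not overlap in 1 with KIAA1429 RIP higher and in 6 with KIAA1429 RIP lower, beside 15.2% and 14.5% of all transcripts. Of the 6, ENST00000295766, ENST00000552924 and ENST00000396389 were under 1 FPKM in both KIAA1429 RIP libraries. They reached the required mean through IgG RIP alone, so the count is a description. It was also 6 among all 31 listed transcripts. Transcripts of 1 gene share their reads, so these counts are not counts of separate events.

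TUBB6 had 4 listed transcripts. The most abundant, ENST00000317702, measured 14.3 and 7.75 FPKM in IgG RIP, against 20.6 and 41 FPKM in KIAA1429 RIP. It was the tubulin transcript without overlap in the higher direction (limma log2 fold change 1.38, SE 0.52, unadjusted p = 0.0491, adjusted p = 0.879). It made up 51.3% and 32.1% of the gene total in IgG RIP, compared with 51.6% and 87.7% in KIAA1429 RIP. The other 3, ENST00000586653, ENST00000591463 and ENST00000591909, summed to 13.6 and 16.4 FPKM in IgG RIP, against 19.4 and 5.78 FPKM in KIAA1429 RIP. In KIAA1429 RIP 1 both parts were higher than in IgG RIP, whereas in KIAA1429 RIP 2 only the most abundant transcript was. ENST00000591909 runs to position 12329825 and overlaps AFG3L2, a listed gene on the opposite strand that begins at 12328943, and whether the libraries kept strand is not stated in the sources used.

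TUBB had 4 listed transcripts of which 91.6% to 98.4% of the windows occur in another of the 4. ENST00000327892 held 94% to 99.2% of the gene total and measured 611 and 453 FPKM in IgG RIP, compared with 552 and 411 FPKM in KIAA1429 RIP. The remaining 3, which begin further downstream and are named here after their values were seen, were all lower in KIAA1429 RIP without overlap. ENST00000330914 measured 23.4 and 15.3 FPKM in IgG RIP, against 2.7 and 6.02 FPKM in KIAA1429 RIP (limma log2 fold change -1.97, SE 0.52, unadjusted p = 0.0143, adjusted p = 0.806). ENST00000396384 measured 13.1 and 6.1 FPKM against 1.86 and 3.18 FPKM, and ENST00000396389 measured 2.51 and 2.96 FPKM against 0.0487 and 0 FPKM. Their sum was 39 and 24.4 FPKM in IgG RIP, compared with 4.61 and 9.2 FPKM in KIAA1429 RIP. The ratio of means, 4.59-fold, follows from values already seen and is a description. In other genes the transcripts beside the most abundant went either way by IgG RIP over KIAA1429 RIP. The ratio was 0.237 for TUBA1C and 0.686 for TUBA1B, against 1.19 for TUBB6, 1.43 for TUBA1A and 2.85 for TUBB3. Of the windows of the 3 minor TUBB transcripts, 94.6%, 98.4% and 96.6% also occur in another listed transcript of TUBB. Their estimates thus rest on few bases of their own.

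TUBA1A was spread over several transcripts. ENST00000301071 measured 16.1 and 9.41 FPKM in IgG RIP, against 9.8 and 6.01 FPKM in KIAA1429 RIP. ENST00000295766 measured 5.39 and 10.4 FPKM in IgG RIP, compared with 0 and 0.684 FPKM in KIAA1429 RIP (limma log2 fold change -2.71, SE 0.67, unadjusted p = 0.011, adjusted p = 0.78). It reached a mean of 1 FPKM through IgG RIP alone, so its difference is given as a description. ENST00000550767 was highest in KIAA1429 RIP 1 with 18.7 FPKM, against 3.39 to 7.91 FPKM elsewhere. ENST00000552924 measured 0.722 and 4.43 FPKM in IgG RIP and was listed at 0 in both KIAA1429 RIP libraries. The leading transcript of TUBA1A thus differed between libraries, and 99.9% of the windows of ENST00000301071 occur in another of its transcripts.

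TUBA1B and TUBA1C differed in this respect. ENST00000336023 held 95.6% to 98.1% of the total of TUBA1B in each library. In TUBA1C, ENST00000301072 measured 97.6, 145 and 105 FPKM in IgG RIP 1, IgG RIP 2 and KIAA1429 RIP 1, and 83.9 FPKM in KIAA1429 RIP 2. ENST00000541364, which begins upstream at position 49621709, was listed at 0 in the first 3 and at 64.7 FPKM in KIAA1429 RIP 2, where it made up 41.5% of the gene total. The TUBA1C total of that library, 156 FPKM, therefore rested on a transcript that no other library showed and that shares 85.4% of its windows with other TUBA1C transcripts.

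The low total of TUBB3 in IgG RIP 2 came with its most abundant transcript, ENST00000315491, at 51.7 and 9.1 FPKM in IgG RIP, against 48.5 and 47.9 FPKM in KIAA1429 RIP. ENST00000555810 (3.07 FPKM) and ENST00000556565 (2.42 FPKM) were above 0 in IgG RIP 2 only. ENST00000553967 measured 4.39 and 6.07 FPKM in IgG RIP, compared with 3.44 and 1.38 FPKM in KIAA1429 RIP, without overlap (unadjusted p = 0.181 by limma). In TUBB2A, ENST00000333628 held nearly all of the total, at 27.3 and 32.2 FPKM in IgG RIP, against 37.4 and 29.1 FPKM in KIAA1429 RIP. The 12 tubulin transcripts that never reached 10% of their gene total stayed at or below 23.4 FPKM.

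GGAC is the core of the sequence in which m6A is most often placed, and it was counted on the sense strand of the most abundant transcripts. Over 19292 listed protein-coding transcripts 98.5% held it at least once, with a median of 3.79 per kilobase and quartiles of 2.53 and 5.56. TUBA1A held 1.79 per kilobase (3 matches), TUBB 1.99 (5 matches) and TUBA1B 2.46 (4 matches), all under the lower quartile, and TUBA1C held 2.83 (8 matches), between the lower quartile and the median. TUBB4B (3.84), TUBB2A (4.33), TUBB3 (4.69) and TUBB6 (5.32) lay between the median and the upper quartile. TUBG1 held 9.95 per kilobase (16 matches), more than 97.4% of the protein-coding transcripts. A match is a stretch of letters, and m6A itself was not measured in these libraries.

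Genes that act on tubulin were examined by lists. The folding list held the 8 CCT subunits, the prefoldin subunits, the tubulin cofactors and their regulator ARL2, 20 genes in all, each of which was listed and tested. Of these 0 were called, 18 had a positive and 2 a negative estimate, and the median log2 fold change was 0.29, beside 51.4% positive and a median of 0.02 over all gene totals. The groups did not overlap with KIAA1429 RIP higher in 10 of the 20, beside 16.6% of all gene totals. TBCA, a cofactor that holds beta-tubulin after release from CCT, measured 45.3 and 42.5 FPKM in IgG RIP, compared with 104 and 79.3 FPKM in KIAA1429 RIP (log2 fold change 1.04, SE 0.29, unadjusted p = 0.00946, adjusted p = 0.993 by limma). PFDN6, a prefoldin subunit, measured 34.9 and 21.7 FPKM against 63.8 and 57.5 FPKM (log2 fold change 1.11, SE 0.33, unadjusted p = 0.0126 by limma). These were the 2 of 20 with an unadjusted p under 0.05 in the higher direction, where 3.17% of all gene totals did so. The lowest estimates were those of PFDN2 (-0.16) and CCT5 (-0.01). The list was chosen with earlier results known, and its counts are a description.

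In the gamma-tubulin ring complex, 9 of 9 genes were tested and 0 were called, with 6 positive and 3 negative estimates and a median of 0.16. MZT2B, a small subunit of the ring, measured 65.9 and 101 FPKM in IgG RIP, against 137 and 150 FPKM in KIAA1429 RIP (log2 fold change 0.80, SE 0.32, unadjusted p = 0.0398 by limma). MZT1 came next (0.44), and TUBGCP3 (-0.38) and TUBGCP4 (-0.23) were lowest. In the other tubulin genes 5 of 12 were listed and 4 tested, with 0 called. Apart from TUBG2 and TUBB2B, these were TUBB4A (1.34 to 6.24 FPKM, log2 fold change -0.69) and TUBE1 (1.89 to 4.08 FPKM, log2 fold change -0.25).

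Of 16 tubulin-modifying enzymes 12 were listed, which add or remove tyrosine, glutamate or acetyl groups. They divided evenly, with 6 positive and 6 negative estimates and a median of 0.00. SVBP (1.15), the partner of the vasohibin carboxypeptidases, was listed at 0 in IgG RIP 1 and at 3.19 to 7.85 FPKM elsewhere, and TTLL11 had 0.69. SIRT2 (-0.52) measured 2.84 and 21.3 FPKM in IgG RIP, against 5.76 and 5.18 FPKM in KIAA1429 RIP. ATAT1 (-0.63), the alpha-tubulin acetyltransferase, measured 1.98 and 6.63 FPKM against 1.96 and 2.23 FPKM. In both genes IgG RIP 2 stood above the other 3 libraries, and the estimate rested on it. Of 18 microtubule-associated and plus-end proteins 17 were listed, with 9 positive and 8 negative estimates and a median of 0.04. The highest estimates were those of KATNA1 (0.59), a subunit of the severing enzyme katanin, and CLASP2 (0.49), and MAP1S had -0.71. None of these genes was called. The groups did not overlap with KIAA1429 RIP higher in 1 and lower in 7 of the 17 microtubule-associated genes, higher in 3 of the 12 enzymes and higher in 2 of the 9 ring complex genes, beside 16.6% higher and 15.2% lower over all gene totals.

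The autoregulation genes were TTC5, SCAPER and CNOT11. TTC5, which binds the nascent tubulin chain, measured 5.7 and 7.46 FPKM in IgG RIP, compared with 7.55 and 12.3 FPKM in KIAA1429 RIP (log2 fold change 0.50, SE 0.43, unadjusted p = 0.278 by limma). The adapter SCAPER had a log2 fold change of 0.01 at 0.676 to 2.84 FPKM. CNOT11, a CCR4-NOT subunit, measured 21.4 and 12.1 FPKM in IgG RIP, against 12.3 and 9.67 FPKM in KIAA1429 RIP (log2 fold change -0.52, SE 0.40). No difference was detected among these 3 at this replication, and their 95% intervals reached from -1.56 to 1.57.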

How the data were processed

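RIP-seq was measured in HCCLM3 cells, with 2 IgG RIP and 2 KIAA1429 RIP libraries grouped by their labels. By the paper's methods, the authors recovered RNA from bead-bound antibody, selected poly(A) RNA, fragmented it, primed it with random hexamers, sequenced it and aligned reads to GRCh37/hg19 with HISAT2. The labels instead describe libraries from total RNA harvested with Trizol, and which account holds for these values is unsettled. The submitters' processing notes also name Bowtie2 2.1.0. The authors deposited FPKM values per transcript. The tool that estimated them, the annotation release, the treatment of reads with several matches and the strand setting are not given in the sources used here. The FPKM were not whole multiples of a step, so reads were not recovered, depth is unknown and precision was judged from replicates.

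FPKM were summed per gene name. Features averaging 1 FPKM or more, 11361 gene totals and 23375 transcripts, entered a limma fit (version 3.58.1, R 4.3.3) of log2(FPKM + 1) on group, by lmFit and eBayes with a variance trend. Tests were two-sided, and p-values were adjusted by Benjamini-Hochberg over all features tested. A fold change on this scale understates that of low genes. The call was an adjusted p under 0.05 and a log2 fold change beyond 1, as in the study's methods, whose count test cannot be applied to FPKM. The error of a log2 ratio of means is the root of the summed squared SDs of the log2 values per group. The fit was also run on simulated data, whose outcome is not reported here and is not used as support.

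Members and lists were chosen with earlier results of these data known, so p-values were not adjusted over a list. All members were named, as were transcripts with at least 10% of their gene total in a library, list genes past the call or otherwise the 2 highest and 2 lowest estimates, and the 3 gene totals closest to the family sum by Euclidean distance. Others are marked where named. Some items that this rule names are not reported here. Coordinates are those of the files. Sequences, exons, windows and GGAC matches are from GENCODE 44 mapped to GRCh37, matched by transcript identifier, and read with Python 3.11.15 and Biopython 1.88. Model ends differ in part from the files, most for ENST00000550767, ENST00000552924 and ENST00000550811. ENST00000639419 had no sequence. Identity was computed on coding sequences in place of the proteins first planned. Alternatives were pseudocounts of 0.1 and 0.01, no filter or a mean of 5 FPKM, scaling by medians or quantiles, the replicate number as a block, a fit with no variance trend, protein-coding or most abundant transcripts only, and each library left out. Windows of 100 bases and family sums without TUBB or TUBA1B were added after seeing the data.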

Additional observations from a re-analysis of the deposited data

How the results depend on the processing

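No tubulin gene total or named tubulin transcript was called under any of the alternatives run, with adjusted p of 0.456 to 1 for gene totals and 0.207 to 1 for transcripts. Of 126 gene total values 117 kept their sign and 9 turned it, and of the transcript values 221 and 9 did so, all of them without a call. A log2 fold change of 1 was passed, with no adjusted p under 0.05, by TUBA1A (-1.49 without KIAA1429 RIP 1), TUBB3 (1.18 without IgG RIP 1, 1.09 with its most abundant transcript only) and TUBB6 (1.38 with its most abundant transcript only). TUBA1B, TUBB4B and TUBB6 kept their sign throughout, TUBB6 at 0.60 to 1.38, but TUBA1B was at -0.01 without KIAA1429 RIP 2. TUBA1C turned to -0.10 after quantile normalization and to -0.34 with the most abundant transcript only. Quantile normalization moved TUBB from -0.20 to -0.66, TUBA1B from -0.40 to -0.64 and the family sum from -0.11 to -0.45, and the cause was not tested.

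When each library was left out in turn, a group of 1 library being assumed to vary like the other, the log2 fold change ranged from -1.49 to 0.01 for TUBA1A, -0.79 to -0.01 for TUBA1B, -0.23 to 0.37 for TUBA1C, -0.43 to 0.02 for TUBB, -0.06 to 0.29 for TUBB2A, -0.13 to 1.18 for TUBB3, 0.15 to 0.75 for TUBB4B, 0.60 to 0.83 for TUBB6, -0.89 to 0.31 for TUBG1 and its transcript ENST00000251413, and -0.31 to 0.06 for the family sum. Among other transcripts it ranged from -0.66 to 1.51 for ENST00000550767, -0.36 to 0.07 for ENST00000327892, -0.03 to 0.33 for ENST00000333628, -0.10 to 2.28 for ENST00000315491, -1.08 to 0.46 for ENST00000586653, -0.36 to 1.71 for ENST00000591463 and -1.97 to 0.74 for ENST00000591909.

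Replicate numbers 1 and 2 occur in both groups, which with 2 pairs does not establish a pairing. The deviations of same-numbered libraries correlated at 0.187 across gene totals and 0.030 across transcripts. With the replicate block, 12 gene totals were called higher and 1 lower, against 0 and 0 without it by limma (360 and 162 at an unadjusted p under 0.05), and the tubulin gene totals had adjusted p of 0.456 to 0.981. The family sum was -0.12 as the mean of within-pair ratios. The transcript calls stayed at 0 with the block. Some transcripts below 5 FPKM have no value under the stricter filter. Depth is unknown, so counting error could not be set beside the spread, and 2 libraries per group limit what could be detected.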
